A study of Rattus norvegicus with 8 samples.

Results

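Genes of the vascular basement membrane were followed through the arrays: Col4a1, Col4a2, Lama4, Lamb1, Lamc1, Nid1, Hspg2, Sparc and Fn1. Members were found as all non-control probes whose gene name in the scanner files is one of these 9 symbols. That gave 9 probes, of 30367 on the array, for 6 genes: Col4a1, Lamc1 and Fn1 had 2 probes each and Col4a2, Nid1 and Sparc had 1 each. No probe carries the names Lama4, Lamb1 or Hspg2. A RefSeq table matched 2 further probes to Lamb1 (listed under a transcript accession) and Hspg2 (listed as LOC313641); these are given separately and enter no count. No match was found for Lama4, which is not analysed here.

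The hippocampus of male Sprague Dawley rats was studied in normoxia and under hypobaric hypoxia, in which a decompression chamber lowered air pressure to that of 25000 ft, with an effective 8% oxygen. No genetic change or drug is named. There were 4 groups of 2 single-colour Agilent arrays: normoxia and exposures titled day 1, day 3 and day 7, of which the last carries 5 days in its exposure field and is called day 7 here. The labels do not tell whether the 2 arrays of a group hold RNA of different animals or of pooled tissue, so the p-values rest on array-to-array spread that may be technical.

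A basement membrane is a thin sheet of matrix on which endothelial cells and pericytes of brain capillaries sit, and against which astrocyte endfeet rest. Laminin trimers, each of an alpha, a beta and a gamma chain, assemble first at the cell surface. Collagen IV then forms a second network, and nidogen and the heparan sulfate proteoglycan perlecan link the networks. Vessels that are growing or remodelling in the brain lay down collagen IV, laminin and fibronectin anew.

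The probes printed here are 60 bases long, on the strand of the transcript, and are those of Col4a1, Col4a2, Nid1 and Sparc, shown because these genes were lower on later days than on day 1. Lamc1 and Hspg2 probes were lower too and are described by position only. Their positions, on rat genome build rn4, come from the annotation in the scanner files. Each probe lies in exons of its transcript, and the annotation used here does not mark coding and noncoding parts. Capitals mark the triplets GGN, the codons of glycine, where at least 6 follow each other at a spacing of 9 bases, the repeat that a collagen helix has at each repeat of 3 residues. Of all 30367 probes 0.0362% hold such a run, and among the probes described here the Col4a1 probe alone does, with its first triplet at base 7.
Col4a1, probe A_64_P293606, chr16:83146135-83146194, plus strand: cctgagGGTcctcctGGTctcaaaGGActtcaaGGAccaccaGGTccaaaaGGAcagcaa
Col4a2, probe A_42_P633958, chr16:82900301-82900360, minus strand: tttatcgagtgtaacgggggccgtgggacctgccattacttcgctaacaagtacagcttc
Nid1, probe A_44_P245616, chr17:66858545-66859398, minus strand, across an intron: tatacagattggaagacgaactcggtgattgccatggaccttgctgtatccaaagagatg
Sparc, probe A_44_P451357, chr10:40811473-40811532, minus strand: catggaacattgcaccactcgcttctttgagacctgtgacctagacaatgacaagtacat

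The other probes are described by position. The second Col4a1 probe (A_64_P149501, chr16:83157776-83157835) starts at base 6519 of its transcript, downstream of the printed probe, which starts at base 4291. Lamc1 has an upstream probe at base 4312 (A_44_P456792, chr13:68251375-68252423, across an intron) and a downstream probe at base 7524 (A_42_P592615, chr13:68241505-68241564). Fn1 has an upstream probe at base 2663 (A_64_P077570, chr9:70745666-70745725) and a downstream probe at base 8136 (A_44_P681660, chr9:70702316-70702375). The Lamb1 probe (A_64_P102668) lies at chr6:49182887-49182946 and the Hspg2 probe (A_64_P151318) at chr5:156328824-156328883. Most probes were read on 2 spots of each array, the downstream Lamc1 probe on 10, and the upstream Fn1 and the Hspg2 probes on 1.

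Levels are log2 signals relative to the array's 75th percentile, so 0 is that percentile. They are compared between arrays for 1 probe, and between probes only to class these by mean level. A change is the log2 difference between 2 group means ± SE (n = 2 arrays in each group), with p-values from limma adjusted by Benjamini-Hochberg over 24678 probes that were well above background in at least 1 group. A probe is said to rise or fall where its adjusted p is under 0.05. All 9 member probes passed that filter and were well above background on all 8 arrays, and no spot of them was saturated. The 75th percentile itself was 2321 and 2684 signal units under normoxia, 2214 and 2247 at day 1, 1566 and 1710 at day 3, and 1393 and 1407 at day 7. Of 30346 complete probes the share well above background went from 82.4% and 83.8% in normoxia to 68.5% and 73.7% on day 7. Without scaling to the percentile, the median change of all probes on days 1, 3 and 7 was -0.23, -0.68 and -0.90. Called changes of the members that turn direction without it are given with each gene.

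On day 1 most basement membrane probes rose: 7 of 9 rose and none fell, where 34.2% of all tested probes were called, 15.1% as rises and 19.2% as falls. The median change of the 9 was 0.74, against -0.06 over all probes. Of the 9, 4 rose by at least 2-fold, a size that 1.47% of all probes reached. By size in either direction, at least 2-fold calls were 4 of 9 on day 1 (background 3.55%), 2 on day 3 (7.53%) and 3 on day 7 (12.4%). Arrays of the group and of normoxia did not overlap for 9 of 9 on day 1 (background 74.5%), 6 on day 3 (77.6%) and 6 on day 7 (80.8%). On day 3 there were 4 rises and 1 fall among 9 (background 49.9%, with 22.7% rises and 27.2% falls), a share called that was near the background. On day 7 there were 3 rises and 2 falls (background 61%, with 29.6% rises and 31.4% falls), so the share of members called was near the background. The day 7 count was 8 of 9, with 6 rises, under normexp background correction and 9 of 9, with 7 falls, without scaling. The median member change was 0.21 on day 3 and -0.08 on day 7, against -0.07 over all probes on both days. How calls over all probes split depended on scaling: rises were 44% of them on day 1, 45.5% on day 3 and 48.5% on day 7, against 64.4% and 70.4% on days 3 and 7 under median centring, 67.2% and 70.3% under normexp, 59.7% on day 1 with the trend with probe GC removed, and 17.7%, 2.16% and 1.25% without scaling.

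**Figure D1:**
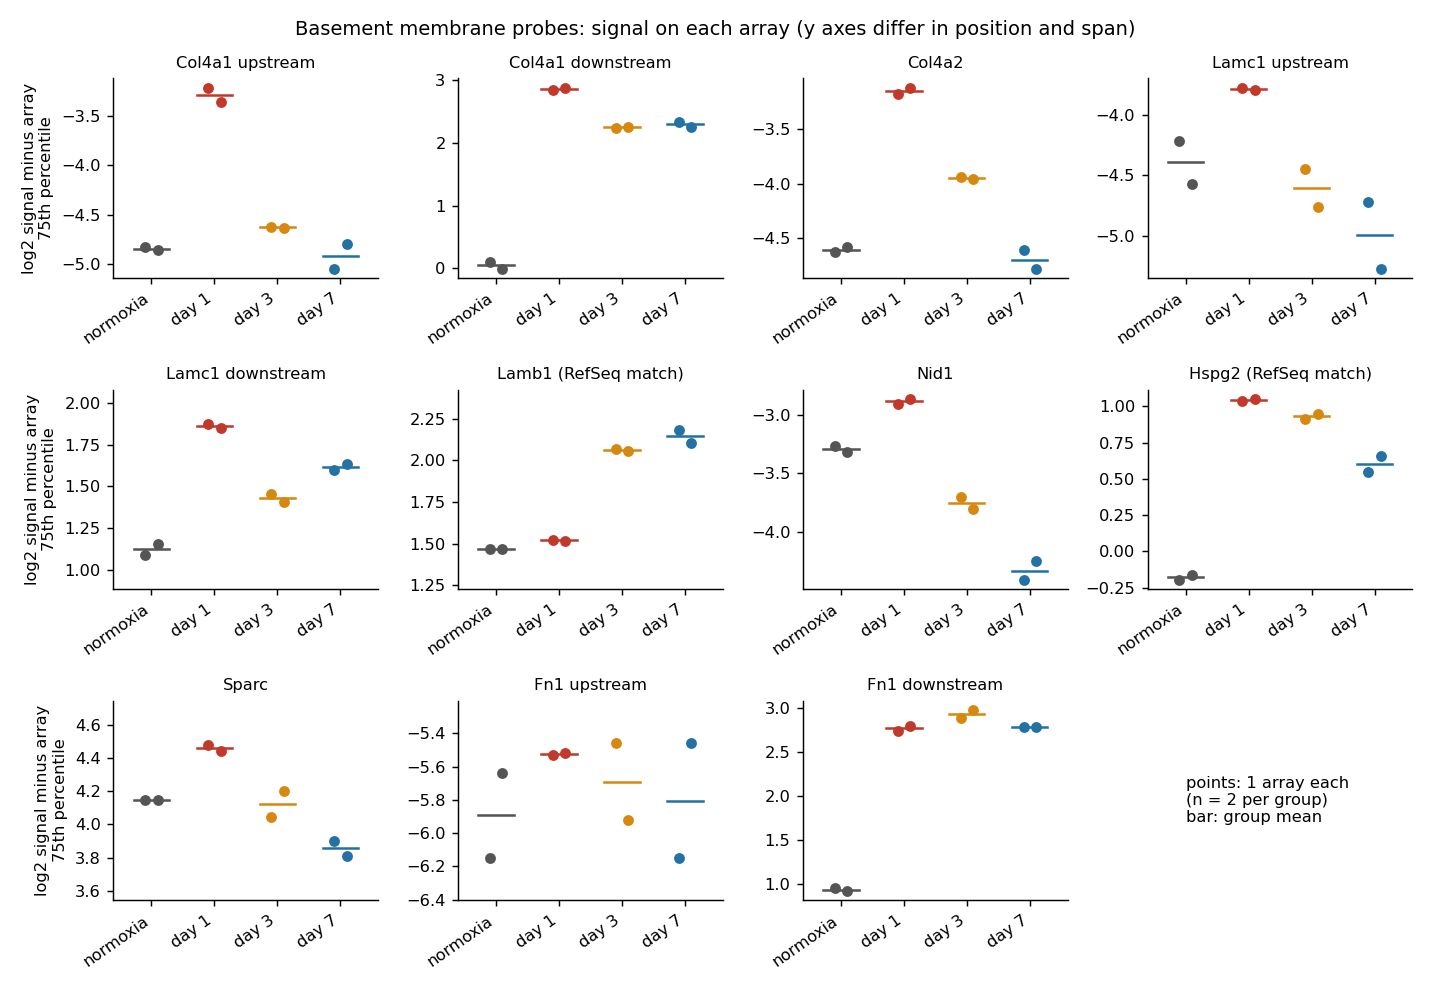
Log2 signal relative to the array's 75th percentile (y axis) of each basement membrane probe in the 4 groups (x axis); each point is 1 array, n = 2 per group, and each bar a group mean. Day 1 has the highest group mean for all of these probes but Lamb1, which is highest on day 7 at 2.14, and the downstream Fn1 probe, which is highest on day 3 at 2.93.

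**Figure D2:**
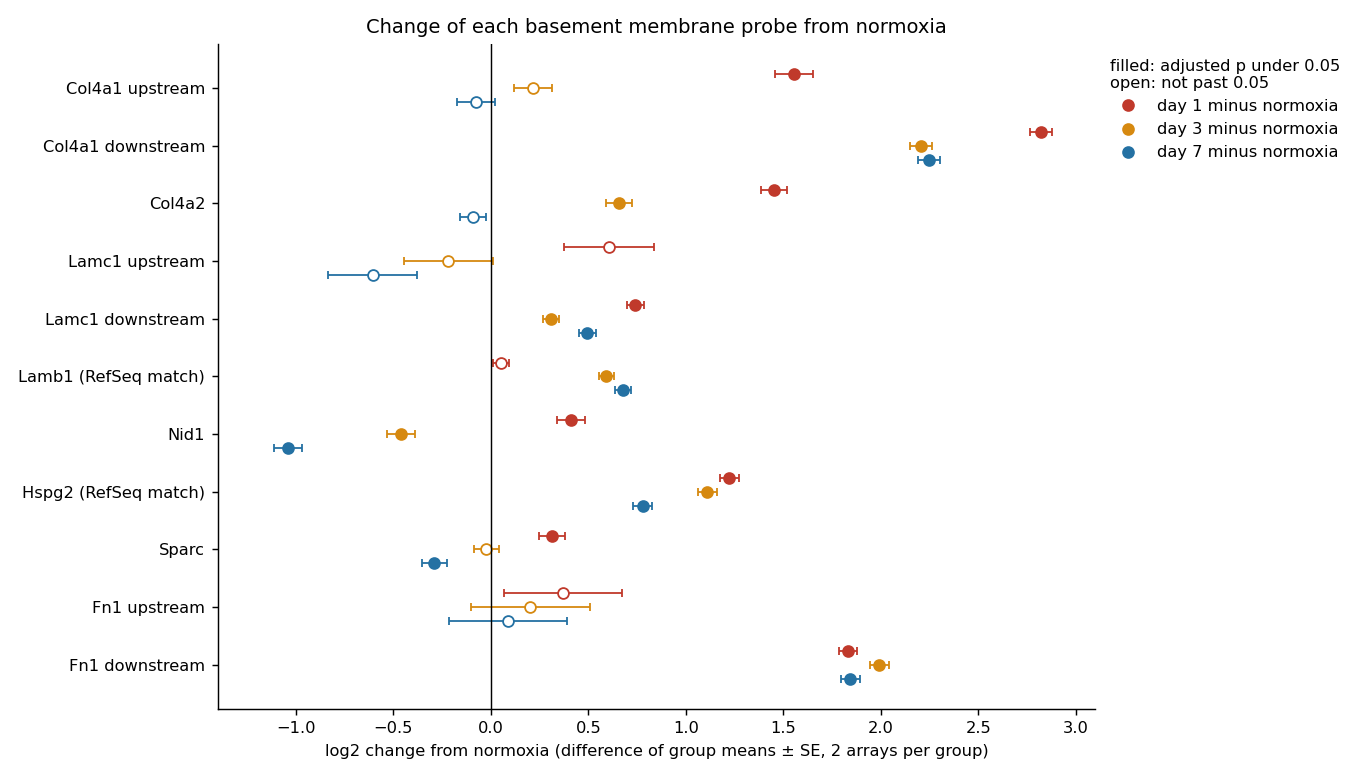
Log2 change from normoxia (x axis, difference of group means ± SE, 2 arrays per group) of each probe (y axis) on days 1, 3 and 7; filled points passed an adjusted p of 0.05 and open points did not. The downstream Fn1 probe stays between 1.83 and 1.99, the downstream Col4a1 probe goes from 2.82 on day 1 to 2.21 on day 3 and 2.25 on day 7, and Nid1 goes from 0.41 on day 1 to -1.04 on day 7.

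The downstream Col4a1 probe had the largest day 1 rise of the 9, followed by the downstream Fn1 probe and the other 2 collagen IV probes. Col4a1 and Col4a2 encode the alpha1 and alpha2 chains, which join as 1 trimer in nearly all basement membranes, vessels of the brain included. The downstream Col4a1 probe read 0.10 and -0.01 under normoxia, 2.85 and 2.89 at day 1, 2.25 and 2.26 at day 3, and 2.34 and 2.25 at day 7. All exposed arrays lay above both normoxia arrays. The rise was 7.07-fold on day 1 (2.82 ± 0.06, adjusted p = 2.44e-05). By size of change it ranked 84 among the 24678 probes. It was still 2.21 ± 0.06 on day 3 (limma adjusted p = 5.17e-05) and 2.25 ± 0.06 on day 7 (limma adjusted p = 2.66e-05), and days 3 and 7 did not pass as different from each other (0.04 ± 0.06, limma adjusted p = 0.595).

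The upstream Col4a1 probe and the Col4a2 probe showed a shorter course. The upstream Col4a1 probe was at -4.83 and -4.85 under normoxia, -3.21 and -3.36 at day 1, -4.62 and -4.63 at day 3, and -5.05 and -4.79 at day 7. Day 1 stood clear of every other group, and the day 7 arrays lay on both sides of the normoxia arrays. It rose 2.94-fold on day 1 (1.56 ± 0.10, limma adjusted p = 0.000545), and its changes of 0.21 ± 0.10 on day 3 (limma adjusted p = 0.125) and -0.08 ± 0.10 on day 7 (limma adjusted p = 0.523) did not pass. Between day 1 and day 7 it fell by 1.63 on the log2 scale (SE 0.10, limma adjusted p = 0.00011). The day 3 change passed as a rise under other normalizations, at 0.36 to 0.47, as a fall without scaling, at -0.39, and at its reported size when either day 7 array was left out (limma adjusted p = 0.0435). The day 7 change passed as a rise under normexp (0.33, limma adjusted p = 0.00941) and as a fall without scaling (-0.91, limma adjusted p = 0.000969).

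Col4a2 read -4.63 and -4.58 under normoxia, -3.18 and -3.12 at day 1, -3.94 and -3.95 at day 3, and -4.61 and -4.78 at day 7. Its arrays stepped down from day 1 to day 3 to day 7, each group apart from the next. It rose 2.74-fold on day 1 (1.45 ± 0.07, limma adjusted p = 0.000214) and by 0.66 ± 0.07 on day 3 (limma adjusted p = 0.00117). Without scaling the day 3 value was 0.05 and did not pass (limma adjusted p = 0.712). Its day 7 mean was below both normoxia arrays, but the change of -0.09 ± 0.07 did not pass (limma adjusted p = 0.29). On that day 4 other normalizations gave 0.16 to 0.30 and called it a rise, while without scaling it fell by 0.92 and leaving out the first day 7 array gave a called change of -0.18. Over the 8 arrays the Col4a2 values followed the upstream Col4a1 probe (Pearson r = 0.93) more than the downstream one (r = 0.63); these correlations describe 8 arrays of 4 groups and share the scaling.

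The laminin gamma1 chain, encoded by Lamc1 and part of most laminin trimers of vessels, rose on every day by its downstream probe. That probe read 1.09 and 1.16 under normoxia, 1.88 and 1.85 at day 1, 1.45 and 1.41 at day 3, and 1.60 and 1.64 at day 7, with all exposed arrays above normoxia. The rise was 1.67-fold on day 1 (0.74 ± 0.04, limma adjusted p = 0.000408). It was 0.31 ± 0.04 on day 3 (limma adjusted p = 0.0031) and 0.49 ± 0.04 on day 7 (limma adjusted p = 0.000376), and without scaling these values were -0.30 and -0.34. The upstream Lamc1 probe spread more between arrays of a group: -4.21 and -4.57 under normoxia, -3.77 and -3.79 at day 1, -4.45 and -4.76 at day 3, and -4.72 and -5.27 at day 7. None of its changes from normoxia passed, with 0.61 ± 0.23 on day 1 (limma adjusted p = 0.101) and -0.61 ± 0.23 on day 7 (limma adjusted p = 0.068); without the first day 7 array the latter was -0.88 and passed (limma adjusted p = 0.0225). Its fall of 1.21 from day 1 to day 7 did pass (SE 0.23, limma adjusted p = 0.00618).

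The beta1 chain, Lamb1, was read only by the probe matched through RefSeq, and it followed a later course. It read 1.47 on both normoxia arrays, 1.52 on both day 1 arrays, 2.07 and 2.06 on day 3, and 2.18 and 2.11 on day 7. Day 1 and normoxia differed by only 0.05 ± 0.04 (limma adjusted p = 0.375), and days 3 and 7 lay above both. The rises were 0.59 ± 0.04 on day 3 (limma adjusted p = 0.000396) and 0.68 ± 0.04 on day 7 (limma adjusted p = 0.000129), with values of -0.02 and -0.16 without scaling.

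Nid1 encodes nidogen 1, which bridges laminin and collagen IV. It was at -3.27 and -3.32 under normoxia, -2.90 and -2.86 at day 1, -3.70 and -3.81 at day 3, and -4.41 and -4.25 at day 7. No group overlapped another, with day 1 above normoxia and days 3 and 7 below it. Nid1 rose by 0.41 ± 0.07 on day 1 (limma adjusted p = 0.0108), then fell by 0.46 on day 3 (SE 0.07, limma adjusted p = 0.00478) and by 1.04 on day 7, which is 2.05-fold (SE 0.07, limma adjusted p = 0.000201). The day 1 call was lost without scaling (0.25, limma adjusted p = 0.22) and when the second normoxia array or either day 1 array was left out. The day 3 call was lost under normexp (-0.15, limma adjusted p = 0.0675). Probes of a similar mean level had a median change of -0.06, -0.16 and -0.23 on the same days. 88.4% of all probes had a higher change than Nid1 did on day 7. Its relative Nid2, encoding nidogen 2, differed in direction on days 3 and 7: it read -3.22 and -3.34 under normoxia, -2.15 and -2.16 at day 1, -1.54 and -1.57 at day 3, and -2.36 and -2.33 at day 7. Nid2 rose by 1.13 ± 0.05, 1.73 ± 0.05 and 0.94 ± 0.05 (limma adjusted p = 0.000185, 6.45e-05 and 9.72e-05), but its day 7 value was 0.10 and did not pass without scaling; the difference between the nidogens was not tested.

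Perlecan, the proteoglycan encoded by Hspg2 that binds growth factors such as VEGF and FGF in the membrane, was read by 1 probe matched through RefSeq. Its levels were -0.20 and -0.16 under normoxia, 1.03 and 1.05 at day 1, 0.92 and 0.95 at day 3, and 0.55 and 0.65 at day 7. All exposed arrays were above normoxia, and day 7 was below days 1 and 3. It rose 2.33-fold on day 1 (1.22 ± 0.05, limma adjusted p = 0.000134), by 1.11 ± 0.05 on day 3 (limma adjusted p = 0.000154) and by 0.78 ± 0.05 on day 7 (limma adjusted p = 0.000148, with -0.05 without scaling).

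Sparc and Fn1 encode matrix glycoproteins at the edge of the membrane. SPARC binds collagen IV and is made by brain endothelial cells and microglia. It read 4.14 and 4.15 under normoxia, 4.48 and 4.44 at day 1, 4.04 and 4.20 at day 3, and 3.90 and 3.81 at day 7. Day 1 was above normoxia, day 3 spanned it and day 7 was below it. Sparc rose by 0.31 ± 0.07 on day 1 (limma adjusted p = 0.019) and fell by 0.29 on day 7 (SE 0.07, limma adjusted p = 0.0131). Both calls rest on few arrays: the first was lost when any 1 of the 4 arrays compared was left out, with limma adjusted p = 0.076 to 0.095, as well as without scaling and under normexp, and the second was lost without either normoxia array or the second day 7 array (limma adjusted p = 0.0548 to 0.0607) and was 0.01 under median centring.

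Fibronectin, which lies in vessel walls during growth and is sparse in the mature brain, is encoded by Fn1. Its downstream probe read 0.96 and 0.92 under normoxia, 2.74 and 2.80 at day 1, 2.89 and 2.98 at day 3, and 2.79 and 2.78 at day 7. Exposed arrays were far above normoxia and close to each other. It rose 3.56-fold on day 1 (1.83 ± 0.05, limma adjusted p = 4.41e-05), 3.98-fold on day 3 (1.99 ± 0.05, limma adjusted p = 4.63e-05) and 3.59-fold on day 7 (1.84 ± 0.05, limma adjusted p = 2.72e-05). The upstream Fn1 probe gave -6.15 and -5.64 under normoxia, -5.53 and -5.52 at day 1, -5.46 and -5.92 at day 3, and -6.15 and -5.46 at day 7. These values of 1 spot per array overlapped between normoxia and days 3 and 7, and no change passed (0.37 ± 0.30 on day 1, limma adjusted p = 0.4). Under normexp this probe passed as a rise on day 3 (0.42, limma adjusted p = 0.0102) and day 7 (0.535, limma adjusted p = 0.00249), and without scaling as a fall on day 7 (-0.75, limma adjusted p = 0.0418).

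Where a member had an upstream and a downstream probe, the downstream one had the higher change from normoxia on each day. The difference of their log2 changes from normoxia was 1.27 for Col4a1, 1.46 for Fn1 and 0.14 for Lamc1 on day 1. It was 1.99, 1.79 and 0.53 on day 3, and 2.33 for Col4a1 and 1.75 for Fn1 on day 7, against 1.1 for Lamc1. RNA was labelled from an oligo-dT primer, which starts at the poly(A) end, and the same difference was measured over 1189 transcripts with probes at least 1000 bases apart. Its median was 0.01 on day 1 (above 0 in 50.9% of transcripts), 0.40 on day 3 (77%) and 0.70 on day 7 (80.8%). Lamc1 lay within the middle range of these transcripts on each day, and Col4a1 and Fn1 lay above it. The part of this array-wide shift in the falls of Col4a2, Nid1, Sparc and the upstream probes after day 1 was not tested.

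**Figure D3:**
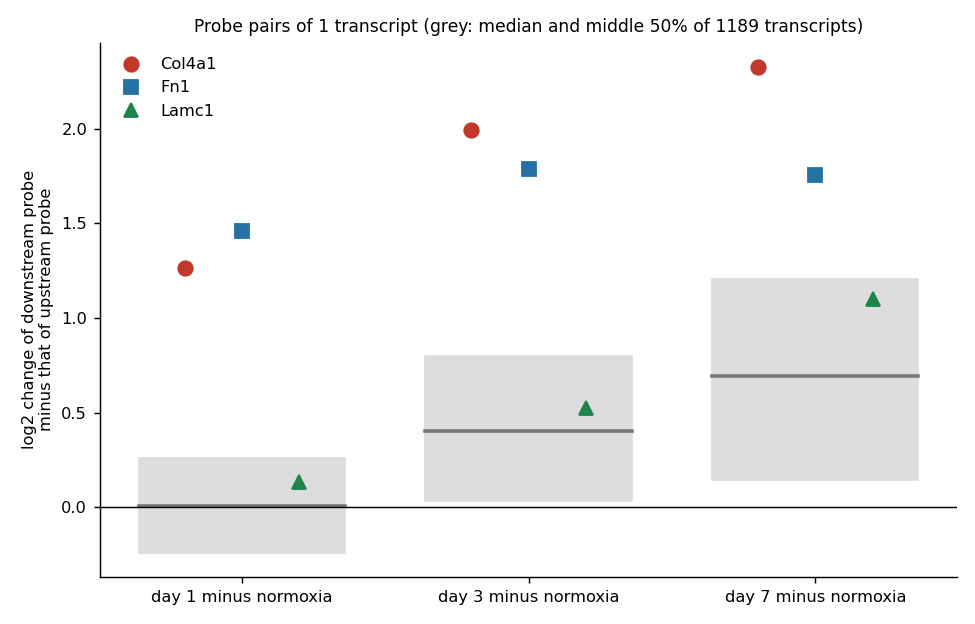
Difference between the log2 changes of the downstream and the upstream probe of 1 transcript (y axis) on days 1, 3 and 7 (x axis) for Col4a1, Fn1 and Lamc1; grey boxes span the middle 50% of 1189 transcripts and grey lines their median. The median moves from 0.01 on day 1 to 0.70 on day 7, and Col4a1 lies at 1.27 and 2.33 on these days.

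From day 1 to each later day most member probes went down. From day 1 to day 3, 7 of 9 fell and 1 rose (background 51%, with 26.7% rises and 24.3% falls), the rise being the downstream Fn1 probe at 0.16 ± 0.05 (limma adjusted p = 0.0379). That rise was lost when any 1 array but the first of day 3 was left out, and turned to -0.28 without scaling. The fall of the upstream Lamc1 probe (-0.82 ± 0.23, limma adjusted p = 0.0313) was lost without any 1 of the 4 arrays compared, and 5 falls remained called without the first day 1 array. From day 3 to day 7, 3 fell and 1 rose (background 41.2%, with 22.3% rises and 18.9% falls), so the share called was near the background. Col4a2 fell by 0.75 (SE 0.07, limma adjusted p = 0.00142) and Nid1 by 0.58 (SE 0.07, limma adjusted p = 0.00334). The remaining fall, Sparc by 0.27, and the rise, the downstream Lamc1 probe by 0.19 ± 0.04, were each lost when some single arrays were left out, so that 2 probes were called without the second day 3 array. From day 1 to day 7, 7 fell and none rose (background 62%, with 33.6% rises and 28.4% falls), with a median change of -0.60 against 0.04 over all probes. Among all probes called, rises were 52.4%, 54.1% and 54.2% in these 3 comparisons, against 66.1%, 75% and 71.7% under median centring, 69%, 61% and 72% under normexp, and 5.05%, 7.93% and 2.95% without scaling. Changes of at least 2-fold were 1 of 9 from day 1 to day 3 (background 7.19%), 0 from day 3 to day 7 (3.27%) and 4 from day 1 to day 7 (12.7%). The groups did not overlap for 8 (background 78.2%), 6 (69.6%) and 7 (80.9%) of the 9. These comparisons share arrays with those to normoxia.

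By course over the 8 arrays the probes formed sets that did not follow gene identity. The downstream Col4a1 probe ran with the downstream Fn1 probe (Pearson r = 0.96), with Hspg2 (r = 0.96) and with the downstream Lamc1 probe (r = 0.91), but less with its own upstream probe (r = 0.56). Nid1 ran with Sparc (r = 0.91) and the upstream Lamc1 probe (r = 0.88) and opposite to Lamb1 (r = -0.90). The sets also differed in level, in 10 classes of probes by mean level with 10 the brightest. The downstream Col4a1, Fn1 and Lamc1 probes were in class 9 and Hspg2 in class 8. Upstream Col4a1 and Lamc1 were in class 3, Col4a2 and Nid1 in class 4, and upstream Fn1, at 19.8 to 49.0 signal units, in class 2. Sparc was in class 10 and Lamb1 in class 9. The part of level was not tested. Each correlation is a description over 8 arrays in 4 groups, with no test.

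Of 2748 genes that varied over the arrays (SD of at least 0.5 log2), 10 were closest in course to the mean of the Col4a1 and Col4a2 probes, by Pearson r over the 8 arrays. They were Akr1b8 (r = 0.99), Gbp2, Tfpi, Angpt2, Adamts1, Apln, Fes, Anxa2, Liph and Mall (r = 0.98). Tfpi encodes the inhibitor of tissue factor coagulation and read 0.24 and 0.27 under normoxia, 2.01 and 2.07 at day 1, 1.34 and 1.33 at day 3, and 1.09 and 1.1 at day 7. Apln, the ligand of the apelin receptor made by sprouting endothelial cells, read 2.0 and 1.92, 4.11 and 4.07, 2.89 and 2.82, and 2.85 and 2.84 on the same arrays. Angpt2, encoding angiopoietin 2, read -3.81 and -3.82 under normoxia, 1.41 and 1.39 at day 1, -0.55 and -0.61 at day 3, and -2.21 and -2.30 at day 7. These genes were chosen for their likeness, so their course is given without a test.

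**Figure D4:**
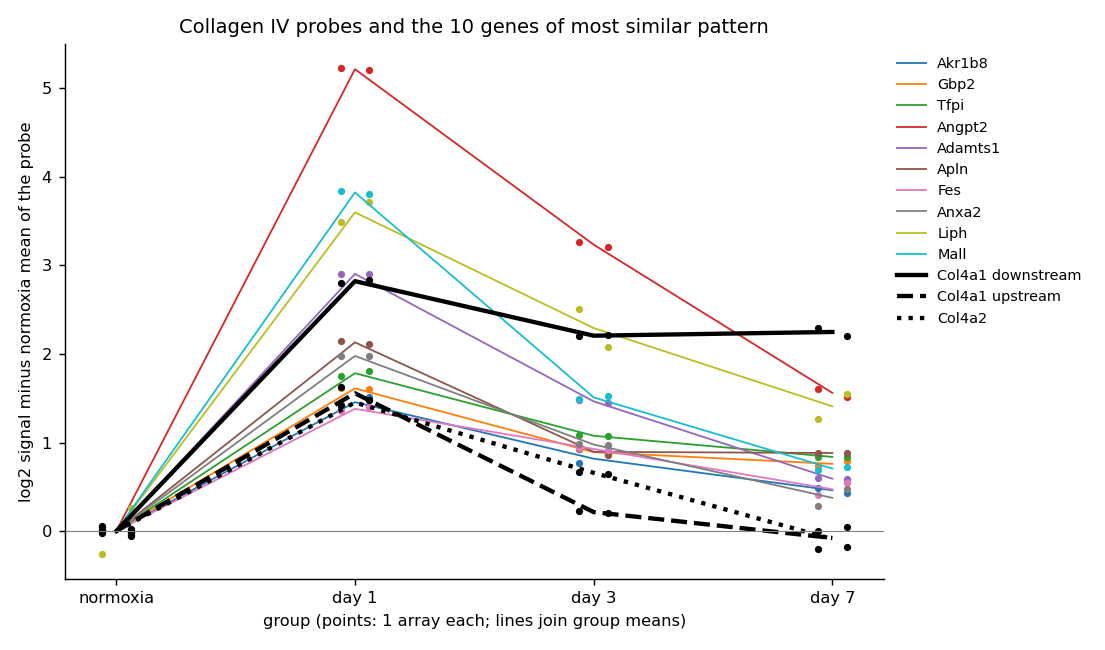
Log2 signal minus the normoxia mean of the probe (y axis) by group (x axis) for the 3 collagen IV probes, in black, and the 10 genes of most similar course; points are arrays and lines join group means. All of them peak on day 1, Angpt2 highest at 5.22, and the downstream Col4a1 probe is at 2.25 on day 7.

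The rest of the basement membrane did not move as 1 set. Of 23 other basement membrane genes tested, 6 rose and 7 fell on day 1, 7 rose and 9 fell on day 3, and 6 rose and 13 fell on day 7 (shares of all probes called: 34.2%, 49.9% and 61%). On day 7 the falls numbered 6 to 9 and the rises 6 to 9 under other normalizations, and without scaling 19 fell and none rose. Their medians were -0.12, -0.08 and -0.24, against -0.06 to -0.07 over all probes, so that of day 7 was lower. Among all probes, falls were 19.2%, 27.2% and 31.4% and rises 15.1%, 22.7% and 29.6% on these days. Egfl7, a matrix protein secreted by endothelial cells, rose by 1.11 ± 0.07, 1.26 ± 0.07 and 1.08 ± 0.07 on days 1, 3 and 7 (limma adjusted p = 0.00046, 0.000226 and 0.000138; 0.25 and not called on day 7 without scaling). Tinagl1, a matricellular protein of basement membranes, rose by 1.08 ± 0.04 on day 1 (limma adjusted p = 8.81e-05) and by 0.26 ± 0.04 on day 3 and 0.41 ± 0.04 on day 7, which without scaling were -0.35 and -0.42. Smoc2, a SPARC-related protein, fell by 0.78 on day 1 (SE 0.04, limma adjusted p = 0.000286), rose by 0.31 ± 0.04 on day 3 (limma adjusted p = 0.00245; -0.30 without scaling) and fell by 0.18 on day 7 (limma adjusted p = 0.0123), a call lost in 5 of 6 other scalings.

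Enzymes and chaperones that build collagen included more rises than falls on day 1. Of 24 tested, 12 rose and 1 fell on day 1, 9 rose and 3 fell on day 3, and 8 rose and 6 fell on day 7, with medians of 0.24, 0.00 and -0.05 (shares of all probes called: 34.2%, 49.9% and 61%). Day 7 was 13 rises and 3 falls under median centring and 12 and 2 under normexp. Without scaling 3 rose and 13 fell on day 3, and 2 rose and 20 fell on day 7. Plod2, a lysyl hydroxylase, read -2.05 and -2.01 under normoxia, -0.86 and -0.87 at day 1, -0.72 and -0.78 at day 3, and -1.09 and -1.07 at day 7, with all exposed arrays higher. It rose by 1.16 ± 0.04, 1.28 ± 0.04 and 0.95 ± 0.04 (limma adjusted p = 8.16e-05, 7.36e-05 and 5.52e-05; 0.12 and not called on day 7 without scaling). P4ha1, a prolyl hydroxylase subunit needed for a stable helix, rose 1.98-fold on day 1 (0.99 ± 0.04, limma adjusted p = 0.000172) and by 0.66 ± 0.04 on day 3 (0.05 and not called without scaling). Its day 7 change of 0.15 ± 0.04 (limma adjusted p = 0.025) was -0.68 without scaling. Tgm2, a transglutaminase that crosslinks matrix proteins including fibronectin, rose 4.08-fold on day 1 (2.03 ± 0.05, limma adjusted p = 4.13e-05) and was up by 1.45 ± 0.05 and 1.33 ± 0.05 later.

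Receptors of the matrix went both ways: of 22 tested, 6 rose and 4 fell on day 1, with a median of -0.07, where 34.2% of all probes were called. On day 7, where 61% of all probes were called, 11 rose and 6 fell (7 to 14 rises under other normalizations), and without scaling none rose and 17 fell. Itga9, an integrin alpha subunit, rose by 0.43 ± 0.05, 0.67 ± 0.05 and 0.80 ± 0.05 on the 3 days (limma adjusted p = 0.0034, 0.000541 and 0.000161; -0.03 on day 7 without scaling). Itgb5, the integrin beta5 subunit, rose by 0.52 ± 0.06 on day 1 (limma adjusted p = 0.00365) and fell by 0.43 on day 3 and 1.03 on day 7 (limma adjusted p = 0.0039 and 0.00014). The day 1 calls of Itga9 and Itgb5 were each lost in 1 of 6 other scalings. Itgb4 and Ddr2, of the same list, fell by 0.55 and 0.41 on day 1. Their day 7 changes were 0.23 and 0.34, and -0.60 and -0.50 without scaling.

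Among 14 matrix proteases and inhibitors, 5 rose and 3 fell on day 1, 6 rose and 6 fell on day 3, and 4 rose and 8 fell on day 7. Shares of all probes called were 34.2%, 49.9% and 61% on these days. Under median centring day 7 had 6 rises and 5 falls. Adamts1, a secreted protease that cleaves proteoglycans, rose 7.49-fold on day 1 (2.90 ± 0.03, limma adjusted p = 6.15e-06), 2.76-fold on day 3 and 1.51-fold on day 7 (0.59 ± 0.03, limma adjusted p = 0.000128, with -0.24 without scaling). Adamts9, of the same family, rose by 2.12 ± 0.04 on day 1, and Plat, tissue plasminogen activator, by 1.66 ± 0.03 (limma adjusted p = 2.28e-05 and 2.66e-05). Timp1, an inhibitor of matrix metalloproteinases, rose by 0.47 ± 0.04 on day 1 (limma adjusted p = 0.00125) and fell by 0.35 on day 7 (SE 0.04, limma adjusted p = 0.00101). Each of these calls was lost in 1 of 6 other scalings. Among 21 other matricellular and TGF-beta genes, 5 rose and 8 fell on day 1 and 4 rose and 13 fell on days 3 and 7 each. Spp1, osteopontin, fell by 2.05 on day 1 and 2.70 on both later days (limma adjusted p = 8.24e-05, 5.17e-05 and 2.66e-05).

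Marker genes of vessel cells went different ways beside the members. Of 29 endothelial markers tested, 16 rose and 5 fell on day 1, 17 rose and 5 fell on day 3, and 17 rose and 6 fell on day 7 (shares of all probes called: 34.2%, 49.9% and 61%). Without scaling 10 rose and 10 fell on day 3, and 7 rose and 17 fell on day 7. Their median changes were 0.52, 0.41 and 0.45 on days 1, 3 and 7. Their summed signal, relative to the 75th percentile, was 30.1 and 31.1 under normoxia, 80.9 and 79.6 at day 1, 61.3 and 62.5 at day 3, and 58.1 and 57.5 at day 7. A sum weighs the brightest genes most, so it need not follow the median of the list. Pecam1, an endothelial adhesion molecule, rose 5.53-fold on day 1, 3.68-fold on day 3 and 2.92-fold on day 7, and Kdr, the main VEGF receptor, rose 4.11-fold, 4.21-fold and 2.68-fold (limma adjusted p between 2.44e-05 and 6.45e-05 for both genes on all days). Abcg2, of the same endothelial list, fell by 2.08 on day 1 and 0.75 on day 3, and its day 7 change was -0.06. Vegfa rose by 2.68 ± 0.07, 2.64 ± 0.07 and 2.50 ± 0.07 (limma adjusted p = 4.41e-05, 5.61e-05 and 3.01e-05). Of 17 pericyte and smooth muscle markers, 6 rose and 6 fell on day 1, and their sum ran from 10.7 to 12.6 over all arrays; Pdgfrb, the pericyte receptor for PDGF, rose by 0.45 ± 0.04, 0.78 ± 0.04 and 0.79 ± 0.04, which without scaling were 0.29, 0.17 and -0.04 and passed on no day, and Tagln, a smooth muscle protein, fell by 0.83, 1.68 and 2.30 (limma adjusted p at most 0.00109 for both). Of the same list, Kcnj8 rose by 1.12, 0.99 and 1.56, and by 0.96, 0.38 and 0.73 without scaling, with no call lost in 6 other scalings. Higd1b rose by 0.88, 0.79 and 0.96, with the calls of days 3 and 7 each lost in 1 of 6 other scalings. Over the list, 4 rose and 8 fell on day 3, and 6 rose and 6 fell on day 7. In bulk RNA of this kind, fewer cells of a type and less RNA per cell cannot be told apart.

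Of 22 markers of hippocampal neurons, 20 were kept, with sums of 59.8 to 61.2 in normoxia and on day 1 and 78.3 to 83.0 later. Of these 20, 5 rose and 8 fell on day 1, 12 rose and 3 fell on day 3, and 8 rose and 6 fell on day 7. Their median changes were -0.14, 0.24 and 0.02. Shares of all probes called on days 1, 3 and 7 were 34.2%, 49.9% and 61%. Of 15 astrocyte markers 6 rose and 4 fell on day 1, 7 rose and 5 fell on day 3, and 8 rose and 6 fell on day 7. Of 15 microglia markers 6 rose and 2 fell on day 1, 1 rose and 9 fell on day 3, and 5 rose and 7 fell on day 7 (8 rose and 4 fell under median centring). The microglia markers summed to 38.1 and 38.8 in normoxia, 40.8 and 41.6 at day 1, 35.3 on both day 3 arrays, and 42.2 and 44.4 at day 7. Csf1r, the microglial CSF1 receptor, rose by 0.59 ± 0.04 on day 1 and fell by 0.89 and 1.1 on days 3 and 7 (limma adjusted p = 0.000867, 0.000199 and 5.2e-05). Others of the list differed: Cd68 fell by 0.45 on day 1, and the changes of C1qb were 0.53, -0.07 and 0.34 on days 1, 3 and 7. Those of C1qc were 0.62, -0.38 and -0.34. The part of microglia in the Sparc values was not tested.

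Markers of neighbouring tissue differed between groups. Leptomeninges and fibroblast markers fell in 17 of 22 cases on day 1 and 16 on days 3 and 7 each (falls among all probes: 19.2%, 27.2% and 31.4%). Their sum went from 65.7 and 68.1 in normoxia to 34.9 and 35.1 at day 1, 41.5 and 41.2 at day 3, and 31.9 and 32.1 at day 7; Col3a1 and Col1a2, fibrillar collagens of these cells, fell by 1.13 and 1.47 on day 1 (limma adjusted p = 0.000166 and 4.42e-05). Choroid plexus markers summed to 129.6 and 140.0 under normoxia, 5.94 and 6.04 at day 1, 183.4 and 171.8 at day 3, and 16.3 and 15.7 at day 7, with 19 of 20 falling on day 1. Striatal markers summed to 35.02 and 35.33 under normoxia, 131.7 on the higher array of day 1, and 30.9 to 33.9 on days 3 and 7, and 17 of 17 rose on day 1. Red blood cell markers rose in 9 of 11 cases on day 1 and 10 on days 3 and 7 each (rises among all probes: 15.1%, 22.7% and 29.6%). The part of any of these in the members' values was not tested. With the day 1 arrays left out of the fit, 5 member probes were called on day 3 and 5 on day 7, as with them. That fit leaves each change from normoxia as it was and alters only the estimate of spread. It therefore cannot tell what part neighbouring tissue had.

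**Figure D5:**
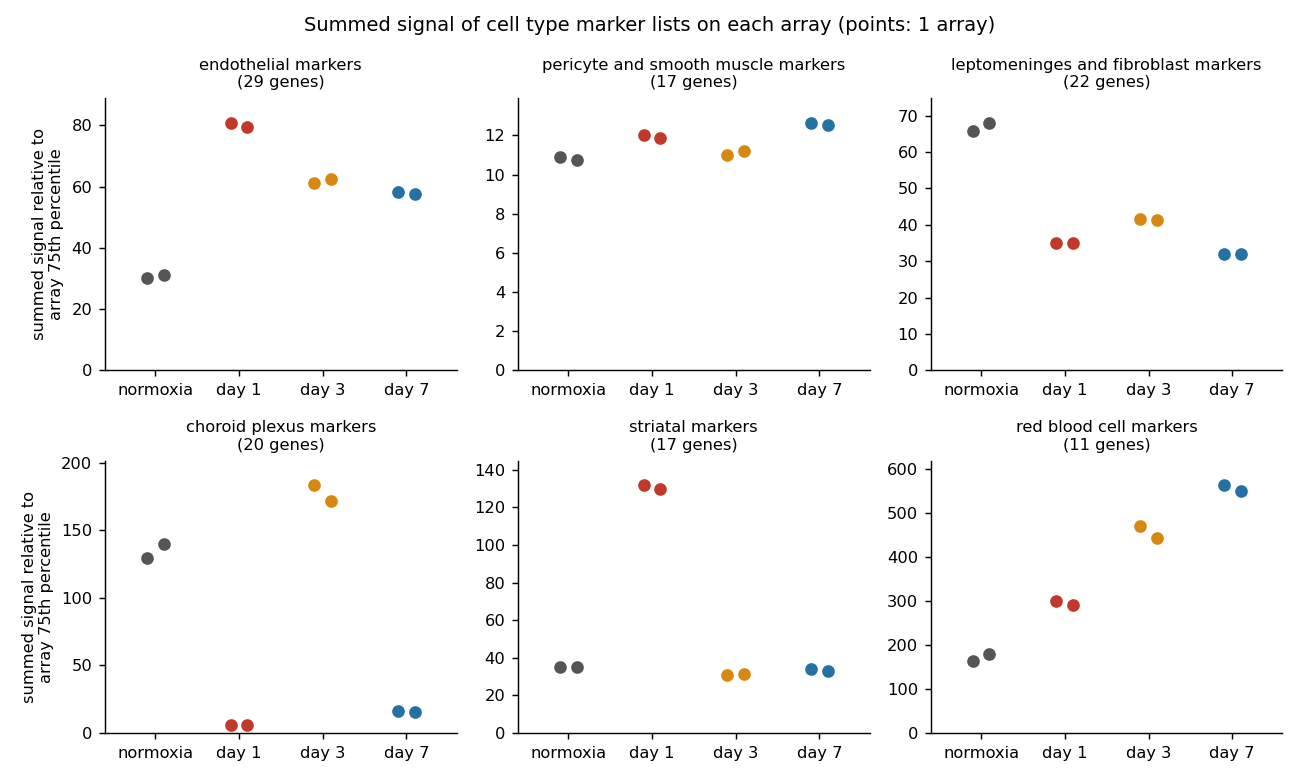
Summed signal relative to the array's 75th percentile (y axis, from 0) of 6 marker lists in the 4 groups (x axis); each point is 1 array. The endothelial sum is highest on day 1, near 80, the striatal sum stands out on day 1, and the choroid plexus sum is low on days 1 and 7.

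Col4a1 and Col4a2 lie head to head and share the DNA between their starts. Between them RefSeq (assembly GRCr8) leaves 76 bases, chr16:84885521-84885596 on the plus strand, shown because these genes rose together on day 1. Capitals mark the only match of the motifs searched, at bases 61 to 66, the GC box GGGCGG read on the minus strand; 78.9% of the bases are G or C.
Col4a2-Col4a1: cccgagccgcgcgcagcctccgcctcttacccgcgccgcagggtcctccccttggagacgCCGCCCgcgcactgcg
Windows from 250 bases before to 50 after the start were in the RefSeq table for 8 of the 9 genes, all but Fn1. Letters were searched on both strands. The core of hypoxia response elements was searched as ACGTG, found in none of the 8 windows against 19.3% of 33469 windows of all genes. Its other form, GCGTG, was in 4 windows (Col4a1, Col4a2, Lamc1 and Hspg2), against 29.7%. Either form was in 4 of 8 windows, against 41.6% of all. The GC box was in 6 of 8 (33.1% of all) and the CCAAT box in 3 of 8 (37.5% of all). The windows of Col4a1 and Col4a2 overlap, so their matches are not independent, and a match of letters is a description of the sequence and not a measured site.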

How the data were processed

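Per the labels' protocols, Cy3 label was put on hippocampal RNA from an oligo-dT primer. The 8 arrays shared 1 slide, on which row 1 held the normoxia and day 1 groups and row 2 the later ones. Slide row and exposure therefore cannot be told apart where day 3 or day 7 is compared with normoxia or day 1. The deposited files give each spot's processed signal intensity from Agilent Feature Extraction 11.5.1.1, with background subtracted and spatial trend removed but without scaling to other arrays, per the file headers. The authors' deposited value table is in log2 units, with its scaling unstated. After 1 constant per array, 96.7% to 97.4% of its values came within 0.05 of the scaled log2 signal used here, and its column medians were -3.23 to -3.53.

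Unflagged spots of a probe were averaged in log2 and scaled by subtracting the 75th percentile of the array. A probe was kept when well above background (on at least 0.5 of its spots) on both arrays of any group, as 24678 of 30346 complete probes were. All 4 groups entered 1 model in limma 3.58.1 (R 4.3.3, lmFit and eBayes, two-sided), with 4 residual and 1.23 prior degrees of freedom. Adjustment was by Benjamini-Hochberg over all kept probes in each of 6 comparisons. A companion gene was read by its kept probe of highest mean. Arrays of equal number were not paired: deviations from group means correlated at -0.14 to 0.04.

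The members and lists were chosen with earlier results of these data known. Every member probe was named, as were up to 4 genes per list with the smallest day 1 p, the 10 genes of most similar course, and Vegfa, Kdr, Pecam1, Angpt2, Pdgfrb, Col1a1, Col3a1 and Ttr where useful. Alternatives were 4 other normalizations, no scaling, the authors' values, other filters and probe summaries, an intensity trend, a fold of 2, 2-group fits, a replicate block and each array left out. A correction for probe GC, and a fit without day 1, were added after seeing the data. The procedure was tested on simulated data. The number of arrays limits the precision.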

Additional observations from a re-analysis of the deposited data

Results flagged for a closer look

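Several member probes changed by at least 2-fold between exposure days, by the test of the difference itself in limma (adjusted over 24678 probes, n = 2 arrays per group). The upstream Col4a1 probe differed by -1.34 between day 1 and day 3 (adjusted p = 0.000426) and by -1.63 between day 1 and day 7 (adjusted p = 0.00011), being lower on the later arrays in each case. Col4a2 differed by -1.54 between day 1 and day 7 (adjusted p = 4.98e-05), the upstream Lamc1 probe by -1.21 (adjusted p = 0.00618) and Nid1 by -1.45 (adjusted p = 7e-05). From day 1 to day 7, 4 of 9 member probes were thus at least 2-fold lower, where 12.7% of all probes changed by that much in either direction. Under normexp all 4 stayed called but were under 2-fold, at -0.75 (upstream Col4a1), -0.72 (Col4a2), -0.35 (upstream Lamc1) and -0.80 (Nid1). Nid1 was above normoxia on day 1 and below it on day 3, a difference of -0.87 between these days (adjusted p = 0.000615). Its day 1 call was lost without scaling and its day 3 call under normexp. Sparc was above normoxia on day 1 and below it on day 7, a difference of -0.60 (adjusted p = 0.000791).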

How the results depend on the processing

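These values turned direction, and the cause was not tested. Without scaling, the day 3 changes became -0.39 (upstream Col4a1 probe), -0.0164 (Lamb1) and -0.30 (downstream Lamc1 probe). The day 7 changes became -0.16 (Lamb1), -0.34 (downstream Lamc1), -0.0535 (Hspg2) and -0.75 (upstream Fn1). On day 7 Col4a2 was 0.20 under median centring, 0.26 under quantile normalization, 0.16 under cyclic loess and 0.30 under normexp. Sparc was 0.0062 under median centring, the upstream Col4a1 probe 0.33 under normexp, and the mean of the Lamc1 probes -0.0556. From day 1 to day 3 the downstream Fn1 probe was -0.28 without scaling, -0.0168 under normexp, -0.0024 as the mean of the gene's probes and -0.0124 with the GC correction. From day 3 to day 7 the downstream Lamc1 probe was -0.0376 without scaling and -0.10 as the mean of its gene's probes. From day 1 to day 7 it was 0.0214 under median centring, and the downstream Fn1 probe was -0.22 under both quantile normalization and cyclic loess, -0.66 without scaling and -0.37 with the GC correction. Lamb1 was -0.0459 without scaling and the upstream Fn1 probe 0.35 under normexp.

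With a fold of 2 added, called member probes numbered 4, 2 and 3 on days 1, 3 and 7, 1 from day 1 to day 3, 0 from day 3 to day 7 (4 by limma's adjusted p alone) and 4 from day 1 to day 7. On day 7 they numbered 9 without scaling and 8 under normexp. From day 1 to day 3 they were 5 by the mean of a gene's probes and 5 to 7 with single arrays left out. From day 3 to day 7 they were 2 in the 2-group fit and 2 to 4 with single arrays left out. Over all probes, day 1 had 5127 calls without scaling and 4667 to 8669 with single arrays left out, with the 4 lowest counts lacking a normoxia or day 1 array. Day 3 had 18622 calls without scaling, and day 3 to day 7 had 5739 without scaling and 5629 in the 2-group fit. With a fold of 2 there were 875, 1858 and 3065 on days 1, 3 and 7, 1775 from day 1 to day 3, 807 from day 3 to day 7 and 3125 from day 1 to day 7.

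With the replicate number as a block, 8 member probes were called on day 1, 5 on day 3 and 6 on day 7. Between days the member counts were 7, 3 and 7, against 11993, 9408 and 14947 over all probes. The upstream Lamc1 probe passed on days 1 and 7 (limma adjusted p = 0.0379 and 0.0208). The downstream Fn1 rise from day 1 to day 3 and the Sparc fall from day 3 to day 7 were lost (limma adjusted p = 0.0553 and 0.051). By level decile, the dimmest probes had median changes of -0.40, -0.65 and -0.67 on days 1, 3 and 7, and the brightest -0.01, 0.18 and 0.36.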
